A study of Danio rerio with 12 samples.

Results

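The response of macrophages to tail amputation was described from 6 of the 12 samples of a zebrafish RNA-seq series, namely the 3 Amp samples and the 3 Control samples, chosen by their labels. All larvae were of the Tg(mpeg1.4:mCherry-F) line, in which the mpeg1 promoter drives a red fluorescent protein in macrophages. They were 3 days old, and each received 0.05% DMSO (the vehicle) from 2 h before wounding. Amp larvae then had their tails partially amputated under tricaine anesthesia, and Control larvae were left intact. At 4 h after amputation, 100 to 150 larvae per sample were pooled and dissociated in the presence of the transcription inhibitor actinomycin D, and the fluorescent cells were sorted by FACS. The other 6 samples of the series, treated with beclomethasone, served only in 1 alternative fit. Every sample is thus a pool of whole larvae, and macrophages at the wound were not separated from those elsewhere in the body.

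Macrophages are the phagocytes of the innate immune system. At a wound they sense debris and microbes through pattern recognition receptors, release cytokines and chemokines that recruit and instruct other leukocytes, and later clear dead cells and help the tissue to rebuild. Activated macrophages are known to shift their metabolism, with more glycolysis and with enzymes such as the itaconate-producing Acod1 and arginase at high levels. The zebrafish tail fin is a widely used model of this response, since its macrophages can be labelled and sorted.

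Between 10894542 and 18865019 reads fell on genes per sample, and the share of reads outside annotated genes was 4.72 to 10.1% in Amp and 9.57 to 12.6% in Control. Levels are given as CPM (read counts scaled to a common library size) after TMM scaling, and are not corrected for gene length, so that they compare samples and not genes. Macrophage genes were abundant in all samples: LCP1, which encodes the leukocyte actin-bundling protein L-plastin, was at 2668, 4948 and 3031 CPM in the Amp samples of replicates 1, 2 and 3, against 2483, 4323 and 1183 CPM in the Control samples. The macrophage transcription factor gene spi1a was at 620, 574 and 449 CPM in Amp and 595, 761 and 289 CPM in Control. These genes were picked after their values were seen and do not stand for all macrophage genes. Of 38 tested macrophage identity genes, 18 had a positive and 20 a negative fold change. The most abundant gene under the symbol MPEG1 was lower in Amp in each replicate, at 1323, 1421 and 165 CPM, against 1679, 2516 and 610 CPM in Control. Transcripts of other tissues were present as well. The 29 muscle markers together made up 45340, 70590 and 138700 CPM in Amp, against 23900, 18820 and 71730 CPM in Control, so that muscle transcripts were present in both groups. In such bulk samples, fewer cells of a type and less RNA per cell cannot be told apart.

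After amputation, 543 of the 22107 genes tested were significantly regulated, which is 2.46% (edgeR's quasi-likelihood test with the replicate experiment as a block, called where the Benjamini-Hochberg adjusted p was under 0.05 and the change exceeded 2-fold). Among them were raised transcripts for the cytokines il6, tnfa, il1b and csf3b and the chemokine cxcl8a, and lowered transcripts for Toll-like receptors, the growth factor receptor csf1rb and the integrin itgb2. Of the tested genes, 251 (1.14%) were upregulated and 292 (1.32%) were downregulated. The median log2 fold change, Amp over Control, was 1.68 among the upregulated and -1.61 among the downregulated genes, beside -0.11 over all tested genes. Changes of more than 4-fold were found for 86 upregulated and 60 downregulated genes, and of more than 8-fold for 22 and 12. The smallest change that passed the test was 2.33-fold, so that the fold-change cutoff removed no gene.

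The changes were unequal among the replicate experiments. In replicates 1, 2 and 3, the median log2 difference between Amp and Control was 1.07, 2.09 and 1.55 for the upregulated genes, and -0.82, -2.05 and -1.73 for the downregulated genes. Replicate 1 held the smallest difference for 163 of the 251 upregulated and 247 of the 292 downregulated genes. The sign of change was the same in each replicate for 229 upregulated and 285 downregulated genes. These counts follow largely from the choice of the genes by a test over the same replicates, and carry no test. The levels of the groups often overlapped, and the replicates also differed in their baseline. All 3 Amp samples lay above all 3 Control samples for 123 of the upregulated genes (808 of all tested genes, 3.65%). They all lay below for 58 of the downregulated genes (1001 of all tested genes, 4.53%). One downregulated gene, scpp9, rested on a single library, with 12.6 CPM in Control replicate 3 and no read in the other 5 samples.

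The number of calls depended on the design and the scaling. A fit with no replicate block gave 0 calls with edgeR, where 938 genes had an unadjusted p below 0.05, and 22 calls with DESeq2. Without replicate 3 only 2 genes passed and without replicate 2 only 65, whereas 1527 passed without replicate 1. The split between the directions also moved: 46.2% of the calls were increases with TMM scaling, 64.7% with DESeq2 and the block (528 of 816), and 11.4% when library size alone was used (93 of 814). Library-size scaling lowered the median log2 fold change of all genes to -0.45. Fold changes below refer to TMM scaling.

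**Figure D1:**
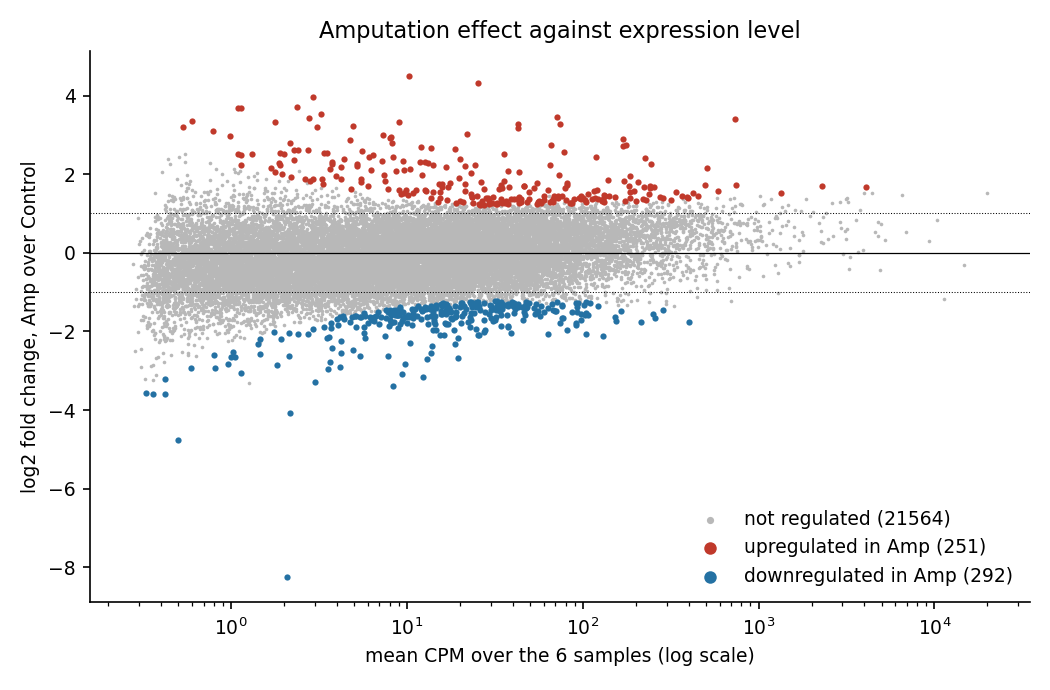
Log2 fold change (Amp over Control, vertical axis) of each of the 22107 tested genes against its mean level over the 6 samples in CPM (horizontal axis, log scale). Red points are the 251 upregulated and blue points the 292 downregulated genes, grey points the other tested genes, and dotted lines mark a 2-fold change; the blue point near the bottom is scpp9, which had reads in 1 library only.

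The regulated genes were spread over the range of expression, and the balance between increases and decreases differed with the level. The median level was 29.5 CPM for upregulated genes (interquartile range 8.29 to 85.6), 16.6 CPM for downregulated genes (7.98 to 34.7) and 8.95 CPM for all tested genes. Of the 1816 genes at 100 CPM or more, 56 were upregulated and 17 downregulated, which is 4.02% in all (95% Wilson interval 3.21 to 5.03%, counting error only). Among the 8693 genes between 10 and 100 CPM, 123 were upregulated and 176 downregulated (3.44%, 3.08 to 3.84%). Increases thus made up 76.7% of the calls in the most abundant class, against 41.1% in the class next to it. The 10 most abundant upregulated genes included the muscle markers ckma, the most abundant of all (mean 4056 CPM), and TNNI2 (mean 2292 CPM). The part of muscle RNA in this balance was not tested. Low levels gave few calls, with 158 of 8876 genes between 1 and 10 CPM (1.78%, 1.53 to 2.08%) and 13 of 2722 below 1 CPM (0.478%, 0.279 to 0.815%), where counts are small and a change of a given size is harder to detect.

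Summed over their members, the upregulated genes took 17590, 55717 and 45885 CPM in Amp, against 7826, 12430 and 15683 CPM in Control. The downregulated genes took 10481, 3241 and 2401 CPM in Amp and 17506, 13016 and 8078 CPM in Control. These sums follow from the choice of the genes and carry no test. The 100 most abundant genes of each sample held 23.8, 29.2 and 35.4% of its reads in Amp and 23.4, 23.1 and 30.3% in Control.

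**Figure D2:**
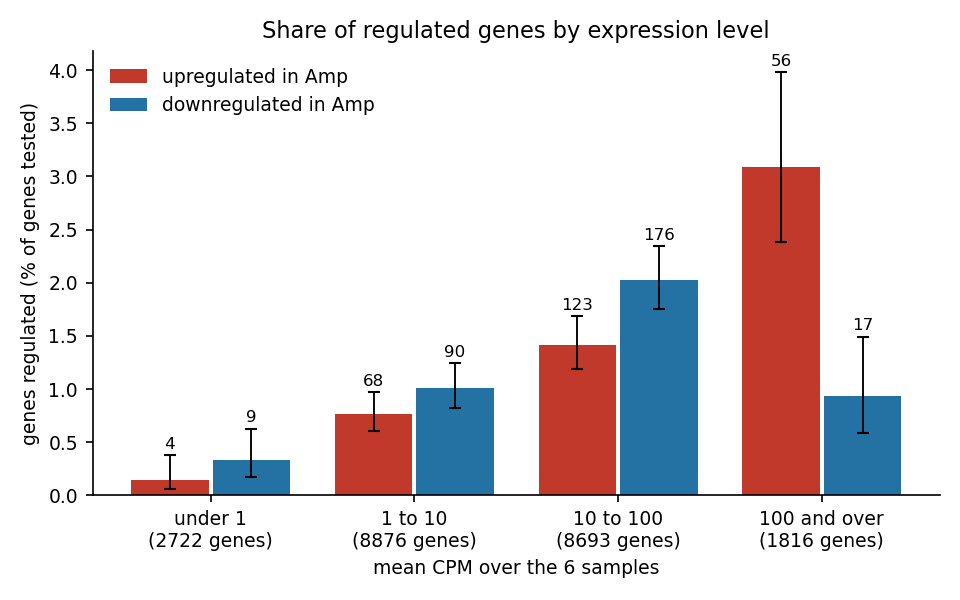
Share of the tested genes that was upregulated (red) or downregulated (blue) in Amp, in percent, in 4 classes of mean level over the 6 samples. Error bars are 95% Wilson intervals, the numbers above the bars count the genes, and increases outnumber decreases only at 100 CPM and over (56 against 17).

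Genes for cytokines and growth factors were called mainly as increases. Of 24 tested members, edgeR called 7 as upregulated (29.2%, beside 1.14% of all tested genes) and none as downregulated. The median log2 fold change was 0.37, beside -0.11 for all genes. DESeq2 with the block called 7 up and 1 down, and library-size scaling gave 6 up and 1 down with a list median of 0.02. The interleukin gene il6 (ENSDARG00000102318) was at 7.76, 67.3 and 40.8 CPM in Amp, against 1.07, 11.5 and 3.19 CPM in Control. It was higher in Amp in each replicate, while the level in Amp replicate 1 lay within the range of the Control samples. Its log2 fold change was 3.01 (standard error 0.41, edgeR adjusted p = 8.6e-10). The gene tnfa (ENSDARG00000009511), for tumor necrosis factor, a principal pro-inflammatory cytokine, was at 1.09, 20.8 and 17.4 CPM in Amp and 0.178, 2.93 and 1.6 CPM in Control. The groups overlapped here too, through Amp replicate 1, and the log2 fold change was 3.00 (standard error 0.50, edgeR adjusted p = 1.3e-06). The other tumor necrosis factor gene, tnfb (ENSDARG00000013598), was more abundant, with a mean of 209 CPM over the 6 samples. Its log2 fold change was 0.36 and did not pass the test (edgeR adjusted p = 0.65).

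The increase of il1b (ENSDARG00000098700), for another principal pro-inflammatory cytokine, was smaller but started from a higher level. It was at 116, 455 and 698 CPM in Amp, against 51.6, 200 and 194 CPM in Control (log2 fold change 1.4, standard error 0.41, edgeR adjusted p = 0.033). Amp replicate 1 was again lower than Control replicates 2 and 3. The gene csf3b (ENSDARG00000098752) encodes a granulocyte colony-stimulating factor, the growth factor of neutrophils. Its levels were 53.5, 492 and 347 CPM in Amp and 12.9, 95.7 and 16.9 CPM in Control (log2 fold change 2.89, standard error 0.43, edgeR adjusted p = 4.4e-08). The remaining upregulated members were HBEGF, a ligand of the epidermal growth factor receptor (1.76), il11b, of the interleukin-6 family (2.26), and hamp (3.27), which is described with SLC40A1 below. Paralogues of csf3b and HBEGF did not pass, namely csf3a (0.15, edgeR adjusted p = 0.88) and hbegfa (0.05, edgeR adjusted p = 0.96). The gene tgfb1a, for transforming growth factor beta, had a log2 fold change of -0.61 and did not pass the test (edgeR adjusted p = 0.40).

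Of 19 tested chemokine genes, 3 were upregulated (15.8%, beside 1.14% of all tested genes) and none was downregulated, with a list median of 0.50. The neutrophil attractant gene cxcl8a (ENSDARG00000104795) was at 29.5, 59.22 and 74.9 CPM in Amp, against 7.36, 28.4 and 13.9 CPM in Control. The groups did not overlap, and the log2 fold change was 1.83 (standard error 0.38, edgeR adjusted p = 0.00048). The CC chemokine gene ccl34b.8 had 11.0, 21.0 and 10.5 CPM in Amp and 2.01, 3.26 and 2.31 CPM in Control, with no overlap between the groups (log2 fold change 2.44, standard error 0.44, edgeR adjusted p = 1.7e-05). The third, ccl19a.1, stayed below 4 CPM in all samples. The gene cxcl11.1, whose product attracts macrophages in zebrafish, had too few reads to be tested, with 0, 7 and 6 reads in Amp and 1, 2 and 0 reads in Control. Without replicate 2, 5 of the 7 cytokine and growth factor genes and 2 of the 3 chemokine genes still passed, and without replicate 3 none did.

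Enzymes of itaconate and arginine metabolism were among the upregulated effector genes. Of 44 tested genes for effector enzymes and wound remodelling, 5 were upregulated (11.4%) and 1 was downregulated (2.27%). The shares over all tested genes were 1.14% and 1.32%. The list median of 0.32 turned to -0.03 under library-size scaling, while DESeq2 with the block called 12 up and 1 down. The gene ACOD1 (ENSDARG00000069844), for the enzyme that makes itaconate in activated macrophages, was at 273, 1049 and 1055 CPM in Amp, against 55.3, 483 and 129 CPM in Control (log2 fold change 2.16, standard error 0.44, edgeR adjusted p = 0.00033). Only Control replicate 2 reached the range of the Amp samples. The gene ARG2 (ENSDARG00000039269), for an arginase, which turns arginine into ornithine, was at 33.3, 240 and 60.6 CPM in Amp and 8.07, 32.8 and 17.6 CPM in Control. Its groups did not overlap (log2 fold change 2.24, standard error 0.39, edgeR adjusted p = 8.2e-06). ODC1, for ornithine decarboxylase, which starts polyamine synthesis from ornithine, was upregulated as well (1.44) and lay among the 10 most abundant upregulated genes.

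Further upregulated members included the collagenase gene mmp13a (1.31) and cd22, for a lectin known as an inhibitory receptor of mammalian B cells (1.45). The gelatinase gene MMP9 was at 135, 235 and 235 CPM in Amp and 61.8, 179 and 54.6 CPM in Control, and missed the threshold (log2 fold change 1.2, standard error 0.40, edgeR adjusted p = 0.075). The same held for ALOX5AP, for the protein that activates 5-lipoxygenase in leukotriene synthesis (1.19, edgeR adjusted p = 0.055). The downregulated member was cd83, for a surface protein of activated antigen-presenting cells. It was at 192, 113 and 28.6 CPM in Amp, against 350, 460 and 149 CPM in Control (log2 fold change -1.76, standard error 0.41, edgeR adjusted p = 0.0033).

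**Figure D3:**
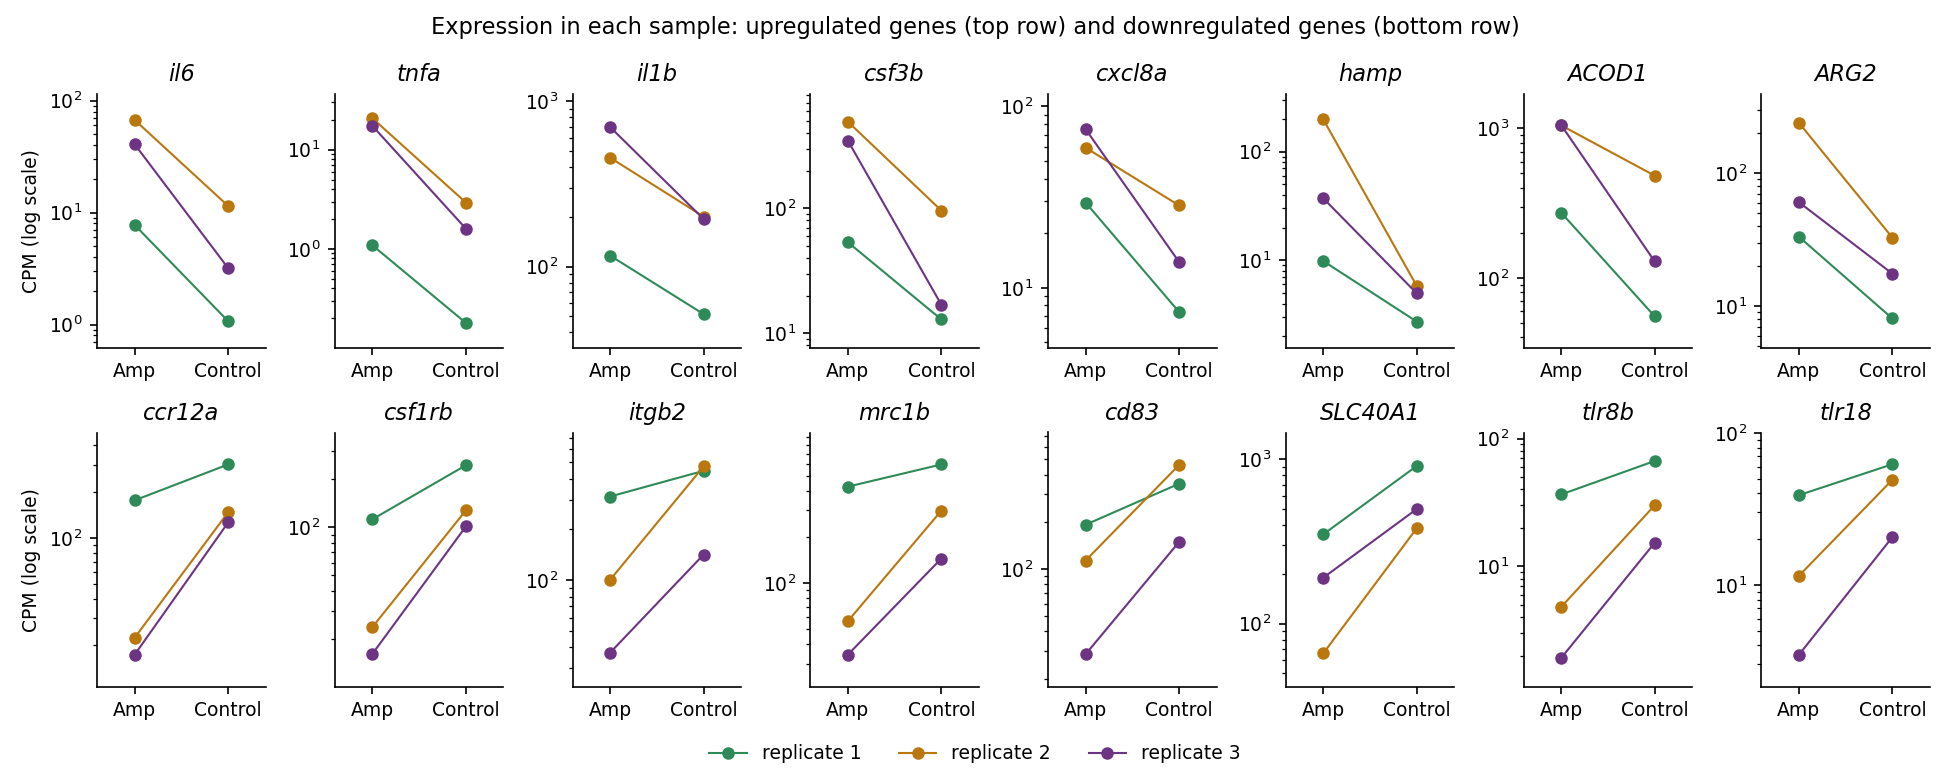
Level of 8 upregulated genes (top) and 8 downregulated genes (bottom) in each sample, in CPM on log scales that differ between panels. Lines join the Amp and Control samples of 1 replicate experiment; Amp exceeds Control on every line of the top panels and lies under it on every line of the bottom panels, where replicate 1 (green) has the smallest difference.

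Genes for sensors and receptors of the inflammatory response included decreases. Of 29 tested genes for pattern recognition and its adaptors, edgeR called 6 as downregulated (20.7%) and 2 as upregulated (6.9%). The shares over all tested genes were 1.32% and 1.14%. The list had a median log2 fold change of -0.69, with medians of -0.003, -0.76 and -1.06 in replicates 1, 2 and 3. DESeq2 with the block called 4 down and 3 up. The downregulated genes were the Toll-like receptor genes TLR2, tlr3, tlr8b, tlr18 and tlr21 and the gene for NOD1, an intracellular sensor of bacterial cell wall fragments. The gene tlr8b (ENSDARG00000073675) was at 36.5, 4.79 and 1.91 CPM in Amp, against 66.7, 29.96 and 15.2 CPM in Control (log2 fold change -2.09, standard error 0.41, edgeR adjusted p = 9.5e-05). It was lower in Amp in each replicate, but Amp replicate 1 exceeded Control replicates 2 and 3. The fish-specific tlr18 (ENSDARG00000040249) was at 38.9, 11.4 and 3.46 CPM in Amp and 62.1, 49.0 and 20.6 CPM in Control (log2 fold change -1.74, standard error 0.39, edgeR adjusted p = 0.0018).

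The other falling sensors were less abundant. The gene tlr3, for a receptor of double-stranded RNA, was at 5.32, 0.701 and 0.239 CPM in Amp, against 13.5, 8.87 and 4.07 CPM in Control (log2 fold change -2.63). The gene tlr21, for a sensor of bacterial DNA in fish, was at 10.6, 0 and 0.597 CPM in Amp and 21.2, 11.0 and 3.51 CPM in Control (log2 fold change -2.62). TLR2 had reads in only 1 of the 3 Amp samples. The flagellin receptor gene tlr5b had a positive log2 fold change of 1.06 and did not pass the test (edgeR adjusted p = 0.093). The upregulated members were pglyrp5, for a peptidoglycan recognition protein, and TIRAP, for an adaptor of Toll-like receptors. Levels of pglyrp5 were 23.0, 306 and 80.1 CPM in Amp and 6.74, 46.0 and 9.02 CPM in Control (log2 fold change 2.56, edgeR adjusted p = 2.9e-07). Without replicate 2 or replicate 3, none of the 6 decreases passed the test.

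Among 34 tested cytokine and chemokine receptor genes, 2 were downregulated (5.88%, beside 1.32% of all tested genes) and none was upregulated (median -0.45). The chemokine receptor gene ccr12a (ENSDARG00000038541) was at 175, 22.3 and 17.3 CPM in Amp, against 300, 147 and 126 CPM in Control (log2 fold change -2.13, standard error 0.42, edgeR adjusted p = 0.00013). Amp replicates 2 and 3 lay below all other samples. The other was ifngr1l, for a receptor chain of interferon gamma (-1.72, edgeR adjusted p = 0.0021). The abundant gene under the symbol CXCR4 (ENSDARG00000041959), for the receptor of Cxcl12, had a log2 fold change of -0.91 (edgeR adjusted p = 0.20), and its scarce paralogue (ENSDARG00000057633) one of -0.01. The gene ccr2, for the receptor of Ccl2, had a log2 fold change of -0.35 (edgeR adjusted p = 0.66). None of these 3 passed the test.

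Transcription factors and feedback regulators that follow inflammatory signals gave few calls, as did all tested genes (2.46%). Counts in lists of this size do not set them apart from that share. None of 45 immediate-early and inflammatory transcription factor genes was called by edgeR, 11 had an unadjusted p below 0.05, and DESeq2 with the block called 1 in each direction. Their median log2 fold change was -0.06. JUNB (ENSDARG00000104773), a member of the AP-1 family, was at 1036, 6638 and 2491 CPM in Amp, against 941, 2594 and 877 CPM in Control (log2 fold change 1.01, edgeR adjusted p = 0.23). Of 31 feedback regulators edgeR called only SOCS1, an inhibitor of cytokine signalling through JAK kinases, as upregulated, and DESeq2 with the block called 2. It was at 2.44, 37.0 and 11.57 CPM in Amp and 1.38, 1.67 and 3.19 CPM in Control (log2 fold change 2.35, standard error 0.47, edgeR adjusted p = 0.00017). The increase was largest in replicate 2.

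Among genes that mark macrophages themselves, some were lower and others higher after amputation, and the list as a whole had a median close to that of all genes. Of 38 tested macrophage identity genes, 4 were downregulated (10.5%, beside 1.32% of all tested genes) and 1 was upregulated (2.63%, beside 1.14%). The median log2 fold change was -0.12, with 18 positive and 20 negative. Positive values included the abundant MFAP4 genes ENSDARG00000088745 (mean 4600 CPM, 0.53) and ENSDARG00000090783 (mean 2903 CPM, 0.78), CD63 (0.76) and lygl1 (1.15), none of which passed. The gene csf1rb (ENSDARG00000053624), for one of the zebrafish receptors of colony-stimulating factor 1, was at 112, 23.7 and 16.1 CPM in Amp, against 245, 128 and 101 CPM in Control (log2 fold change -2.07, standard error 0.40, edgeR adjusted p = 0.00011). Only Amp replicate 1 came within the Control range. Its paralogue csf1ra was at 272, 181 and 104 CPM in Amp and 371, 377 and 181 CPM in Control, with a log2 fold change of -0.77 that did not pass (edgeR adjusted p = 0.29). The integrin gene itgb2 (ENSDARG00000016939), for the shared beta chain of the leukocyte integrins, was at 314, 100 and 37.1 CPM in Amp, against 446, 473 and 142 CPM in Control (log2 fold change -1.57, standard error 0.42, edgeR adjusted p = 0.015).

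The mannose receptor gene mrc1b (ENSDARG00000038822) was at 426, 56.6 and 34.2 CPM in Amp and 595, 298 and 145 CPM in Control (log2 fold change -1.66, standard error 0.42, edgeR adjusted p = 0.0093). The scavenger receptor gene stab1 fell by 1.27 on the log2 scale. Of 42 tested genes of lipid handling, lysosome and efferocytosis (median -0.10), 2 were downregulated (4.76%, beside 1.32% of all tested genes). They were mertka, for a receptor of apoptotic cells (-1.31), and scarb2a, for a lysosomal membrane protein (-1.52). The gene plin3, for a lipid droplet coat protein, was upregulated (1.39). The 3 genes under the symbol MPEG1, which encode perforin-like proteins of macrophages, differed among themselves. The most abundant (ENSDARG00000055290) was at 1323, 1421 and 165 CPM in Amp, against 1679, 2516 and 610 CPM in Control, and did not pass (log2 fold change -1.01, edgeR adjusted p = 0.20). A second (ENSDARG00000043093) was upregulated, with 55.9, 182 and 60.5 CPM in Amp and 30.1, 55.9 and 21.5 CPM in Control (log2 fold change 1.36, edgeR adjusted p = 0.023). The third (ENSDARG00000078569) had a log2 fold change of -0.66 and did not pass. Reads of such close copies may be split between them.

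The genes hamp and SLC40A1 encode partners in iron transport. Hepcidin, the product of hamp, binds the iron exporter ferroportin, the product of SLC40A1, and causes its breakdown. The gene hamp (ENSDARG00000102175) was at 9.83, 197 and 37.1 CPM in Amp, against 2.72, 5.77 and 4.95 CPM in Control, with no overlap (log2 fold change 3.27, standard error 0.43, edgeR adjusted p = 1.8e-10). SLC40A1 (ENSDARG00000000241) was the most abundant of the downregulated genes, at 350, 66.1 and 191 CPM in Amp and 913, 382 and 500 CPM in Control. Its groups did not overlap either (log2 fold change -1.76, standard error 0.42, edgeR adjusted p = 0.0045). Other abundant downregulated genes were SYK, for a kinase that signals from immune receptors (-1.36), SLC43A2, for an amino acid transporter (-1.73), and ehd4, for a protein of endosome recycling (-1.49), which was lower in Amp only in replicates 2 and 3.

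Large increases, among genes with a symbol that reached 1 CPM on average and changed one way in all replicates, came from a mixed set. SLC12A3 (ENSDARG00000013855), for the sodium chloride cotransporter of the kidney tubule, was at 31.4, 18 and 6.68 CPM in Amp, against 0.0446, 0.251 and 5.66 CPM in Control (log2 fold change 4.50, standard error 0.60, edgeR adjusted p = 1.9e-10). The kidney chloride channel gene clcnk was also among them (3.52). The acute-phase gene SAA2 (ENSDARG00000045999), for serum amyloid A, was at 0.597, 11.56 and 4.89 CPM in Amp and 0.268, 0.167 and 0.160 CPM in Control (log2 fold change 3.95, edgeR adjusted p = 3.4e-06). The interferon-induced gene ifitm1 was at 19.4, 350 and 55.0 CPM in Amp, against 5.35, 9.96 and 7.34 CPM in Control (log2 fold change 3.27, edgeR adjusted p = 2.5e-10). Its Amp samples lay above all Control samples. STC1, for the hormone stanniocalcin (3.70), and illr4, for a lectin-like receptor of immune cells (3.68), completed the genes of known product near the top.

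A gene known only by its clone name, si:ch211-284o19.8, combined a large increase with a high level. It was at 455, 2055 and 1531 CPM in Amp, against 62.4, 246 and 76.1 CPM in Control, without overlap (log2 fold change 3.41, standard error 0.47, edgeR adjusted p = 1.3e-09). Likewise si:dkey-195m11.11 was at 125, 190 and 73.0 CPM in Amp and 5.93, 24.4 and 8.86 CPM in Control (log2 fold change 3.46, edgeR adjusted p = 1.4e-12), and was 1 of the 7 genes that passed when all 12 samples of the series were fitted together. Among the largest decreases were pcsk5a, for a proprotein convertase (-4.08), helz2b, for a helicase (-3.05), slc8a4b, for a sodium-calcium exchanger (-2.96), and TG, for thyroglobulin, the hormone precursor of the thyroid (-2.68). All stayed under 10 CPM in every sample except TG, which had 0.380, 0.818 and 35.5 CPM in Amp and 7.45, 12.1 and 60.6 CPM in Control.

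Genes of energy metabolism had positive medians as groups, and the number that passed singly depended on the tool. Of 40 tested glycolysis genes, edgeR called 8 as upregulated (20%, beside 1.14% of all tested genes) and none as downregulated, and 32 had a positive fold change (median 0.94). DESeq2 with the block called 16 of them as upregulated, and edgeR with library-size scaling 2. The gene HK2, for hexokinase, which traps glucose in the cell, was at 258, 373 and 449 CPM in Amp, against 93.6, 208 and 71.4 CPM in Control, with no overlap (log2 fold change 1.65, edgeR adjusted p = 0.0088). PFKP, for the platelet form of phosphofructokinase, was at 97.1, 194 and 160 CPM in Amp and 57.0, 64.3 and 55.4 CPM in Control, again without overlap (1.3, edgeR adjusted p = 0.040). The others were ALDOA, ALDOC, GAPDH, PGAM2, PKM and GPI. Muscle markers moved in the same samples, with a positive fold change for 26 of 29 (median 0.93). With edgeR, ckma, TNNI2, pvalb3 and pvalb4, for muscle creatine kinase, a troponin and parvalbumins, were upregulated (13.8% of the list). DESeq2 with the block called 11 markers. Aldolase A and the muscle phosphoglycerate mutase Pgam2 are abundant in muscle, and the part of muscle RNA in the glycolysis result was not tested.

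The nuclear genes of the mitochondrial respiratory chain had a nearly uniform sign. Of 87 tested, 86 had a positive fold change, with a median of 1.04. With edgeR 8 were upregulated (9.2%, beside 1.14% of all tested genes), against 27 with DESeq2 and the block. The 8 were NDUFA2, NDUFA3, NDUFA6, NDUFS7, UQCRQ, COX5B, cox6b1 and COX7A2. NDUFS7, for a subunit of complex I, was at 112, 641 and 259 CPM in Amp, against 94.6, 110 and 103 CPM in Control (1.37, edgeR adjusted p = 0.047). Replicates 1, 2 and 3 had list medians of 0.13, 1.83 and 1.13, so the difference lay mainly in replicates 2 and 3. With library-size scaling none of the 87 passed and the median was 0.69. None of 13 mitochondrially encoded genes was called by edgeR or by DESeq2 with the block, 1 had an unadjusted p below 0.05, and their median was -0.09, with -0.53, 0.85 and -0.43 in replicates 1, 2 and 3. The difference between the nuclear and the mitochondrial lists was not tested.

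Genes of protein synthesis and breakdown had positive medians without calls by edgeR, which called 2.46% of all tested genes. Of 84 cytosolic ribosomal protein genes, 83 had a positive fold change (median 0.66), but none passed by edgeR or DESeq2 with the block, and 15 had an unadjusted p below 0.05. Their median was -0.60 in replicate 1, and 1.44 and 1.09 in replicates 2 and 3. Of 57 proteasome genes, 52 were positive (median 0.78), and none passed with edgeR, while 29 had an unadjusted p below 0.05 and DESeq2 with the block called 9 as upregulated. The share of reads outside genes, often used as a sign of RNA and DNA quality, was lower in Amp in all replicates (10.1, 6.55 and 4.72% in Amp, against 12.6, 10.5 and 9.57% in Control), and its part in these differences was not tested.

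Several of the symbols named are carried by more than 1 gene, of which only 1 passed the test. The abundant genes without a call still had log2 fold changes near those of their called paralogues for GPI (ENSDARG00000103826 at 1.35, ENSDARG00000012987 at 1.45), ALDOA (ENSDARG00000034470 at 1.56, ENSDARG00000011665 at 1.05), PKM (ENSDARG00000099860 at 1.41, ENSDARG00000099730 at 0.81) and COX5B (ENSDARG00000068738 at 1.88, ENSDARG00000015978 at 1.08). ALDOC was called for ENSDARG00000019702, and its scarce paralogue ENSDARG00000057661 had a log2 fold change of 1.41. Others lay apart: PFKP was called for ENSDARG00000028000, against -0.51 for ENSDARG00000012801, STC1 for ENSDARG00000058476, against -0.43 for ENSDARG00000003303, and SLC43A2 for ENSDARG00000036848, against -0.04 for ENSDARG00000061120. The difference between paralogues was not tested.

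Of the 6 tested genes under the muscle symbol TNNI2, ENSDARG00000029069, the most abundant, was called, and the other 5 had log2 fold changes of 1.09, 0.98, 0.62, -0.17 and -0.27. JUNB had a second gene, ENSDARG00000074378, with a log2 fold change of 0.48 that did not pass either.

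**Figure D4:**
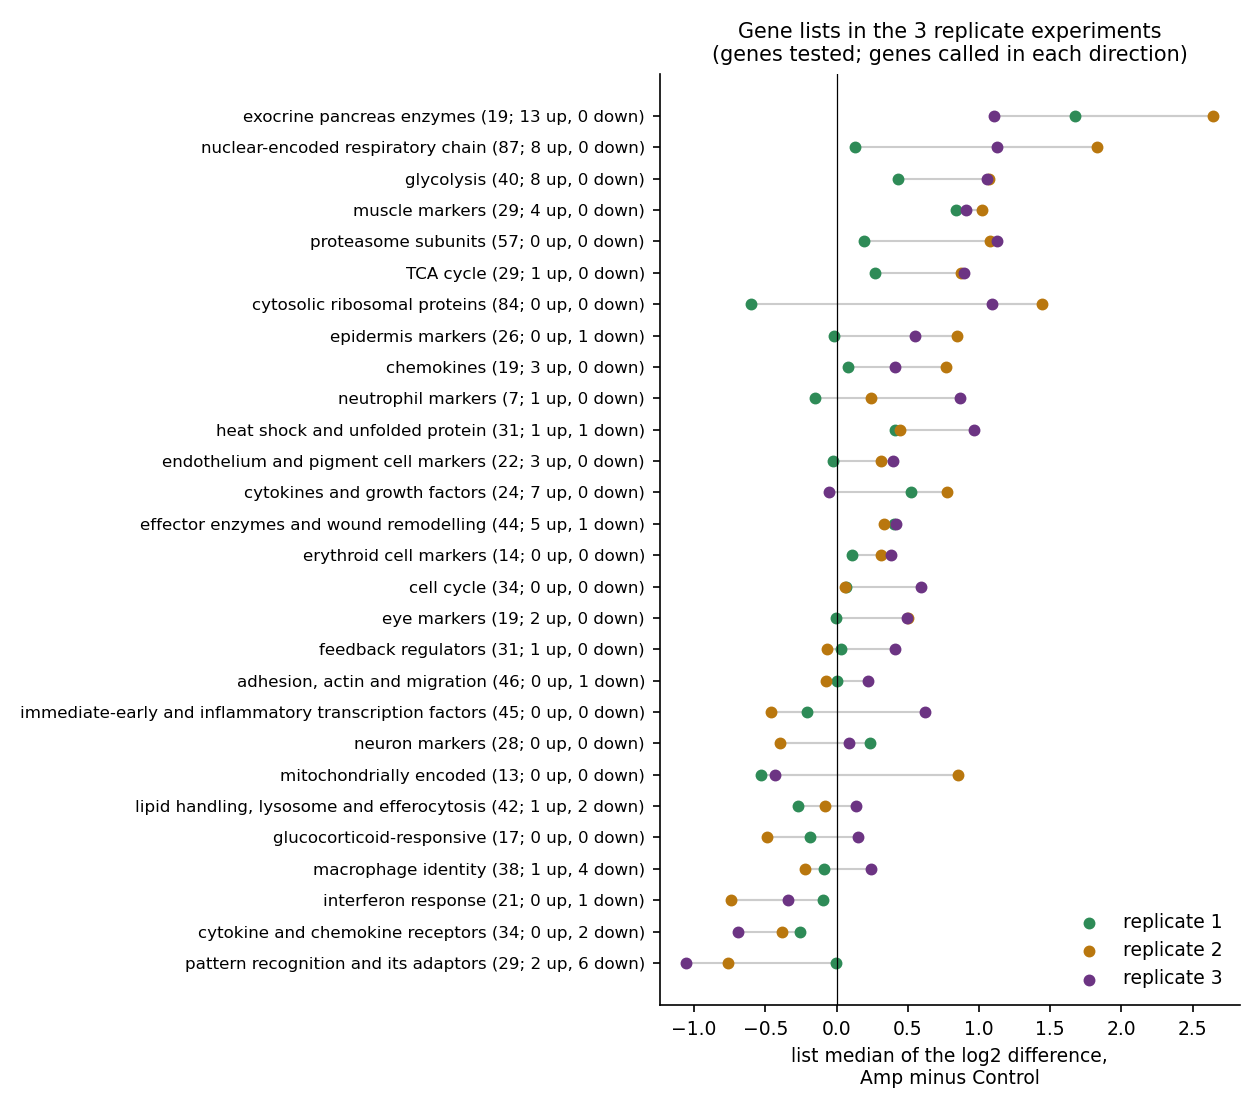
Median log2 difference (Amp minus Control) over the tested genes of each list, 1 point per replicate experiment, with lists ordered by their median log2 fold change. The labels give the genes tested and the genes called in each direction; replicate 1 (green) lies at or left of replicates 2 and 3 for most lists with positive medians, such as the respiratory chain (0.13, against 1.83 and 1.13).

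With TMM scaling, most marker lists of tissues other than macrophages had positive medians, though the neuron markers had a median log2 fold change of -0.07. Library-size scaling gave medians of 0.57 for muscle, 0.20 for epidermis and 0.01 for endothelium and pigment cell markers. It gave -0.04 for erythroid, -0.15 for eye and -0.42 for neuron markers. Of 22 tested endothelium and pigment cell markers, 15 had a positive and 7 a negative fold change. With edgeR the pigment genes DCT, TYRP1 and pmela, for proteins of melanin synthesis and melanosomes, were upregulated. They made up 13.6% of the list, beside 1.14% upregulated among all tested genes. DESeq2 with the block called 1 up and none down, and library-size scaling gave 1 up and 1 down. In replicate 1 these pigment genes were not higher in Amp, with log2 differences of -0.47 for DCT, -0.04 for TYRP1 and -0.007 for pmela. The endothelial genes KDR, TIE1 and tek had log2 fold changes of -1.07, -0.99 and -0.41 and did not pass. TYRP1 was at 16.0, 884 and 124 CPM in Amp, against 16.5, 40.8 and 39.6 CPM in Control (log2 fold change 1.95, edgeR adjusted p = 0.0036). Its scarce paralogue under the same symbol had a log2 fold change of 0.77 and did not pass. The levels of the abundant one (ENSDARG00000056151) were alike in replicate 1 and apart in replicates 2 and 3. Among 19 tested eye markers, 1 of the genes under the symbol RPE65 (ENSDARG00000007480), for a retinal pigment epithelium enzyme, was upregulated. It was at 0.977, 46.4 and 65.1 CPM in Amp, against 1.56, 2.76 and 11.2 CPM in Control (log2 fold change 2.19, edgeR adjusted p = 0.00036), and was higher in Amp in replicates 2 and 3 only. Both other RPE65 genes had a log2 fold change of -0.23 and did not pass.

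The digestive enzymes of the exocrine pancreas form a list added after the values had been seen, so its count is a description. All 19 tested members had a positive fold change, with a median of 2.17. With edgeR 13 were upregulated (68.4%, beside 1.14% of all tested genes). Among them were prss1 (trypsin), 1 of the 2 genes under CPA1 (carboxypeptidase), ela2 (elastase) and ctrb.3 (chymotrypsin). DESeq2 with the block called 7, and edgeR with library-size scaling 9. With replicates 1, 2 and 3 left out in turn, edgeR called 11, 4 and 0. The summed level of the 29 matched members, tested or not, was 150, 136 and 264 CPM in Amp, against 39.9, 29.6 and 117 CPM in Control. The Amp samples all lay above the Control samples. Copies such as prss59.1 and prss59.2, or both genes under the symbol CEL, are near neighbours in sequence, and their separate values are uncertain.

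Blood and nerve markers gave no call with edgeR, which called 2.46% of all tested genes, so that lists of this size may well hold none. None of 14 erythroid markers was called by edgeR or DESeq2 with the block, 1 had an unadjusted p below 0.05, and their sum was 1910 to 5525 CPM in Amp and 1364 to 3583 CPM in Control. None of 28 neuron markers was called by edgeR, 4 had an unadjusted p below 0.05, and DESeq2 with the block called 1 as upregulated. Their sum was 2048, 2530 and 3489 CPM in Amp, against 1707, 1888 and 2436 CPM in Control, and was higher in Amp in each replicate. Singly, 11 of the 28 had a positive and 17 a negative fold change (median -0.07). Markers of the epidermis, the tissue that covers the cut tail, had a median of 0.56. Of these 26 markers edgeR called only 1, a gene under DSP (ENSDARG00000076673), for the desmosome protein desmoplakin, as downregulated (-1.25, against -0.29 for ENSDARG00000022309). The sum over the 27 matched epidermis genes, tested or not, was 8379 to 35530 CPM in Amp and 8201 to 19690 CPM in Control. Of 7 tested neutrophil markers edgeR called only mmp13a, which macrophages can also express, while DESeq2 with the block called 2 up and 1 down. Their sum was 414, 1130 and 319 CPM in Amp, against 304, 433 and 195 CPM in Control, and was higher in Amp in each replicate. Of the 7 neutrophil markers, 5 had a positive and 2 a negative fold change. The marker nccrp1 was at 105, 453 and 141 CPM in Amp and 81.7, 115 and 53.8 CPM in Control (log2 fold change 1.25, edgeR adjusted p = 0.063), and srgn had a log2 fold change of 0.89 (edgeR adjusted p = 0.21). The negative ones were CSF3R, at -1.17 (edgeR adjusted p = 0.062), and npsn, at -0.46 (edgeR adjusted p = 0.54). The lysozyme gene lyz was at 40.0, 104 and 30.2 CPM in Amp and 46.8, 57.3 and 16.4 CPM in Control (edgeR adjusted p = 0.47). The part of RNA from other cells in the increases was not tested.

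**Figure D5:**
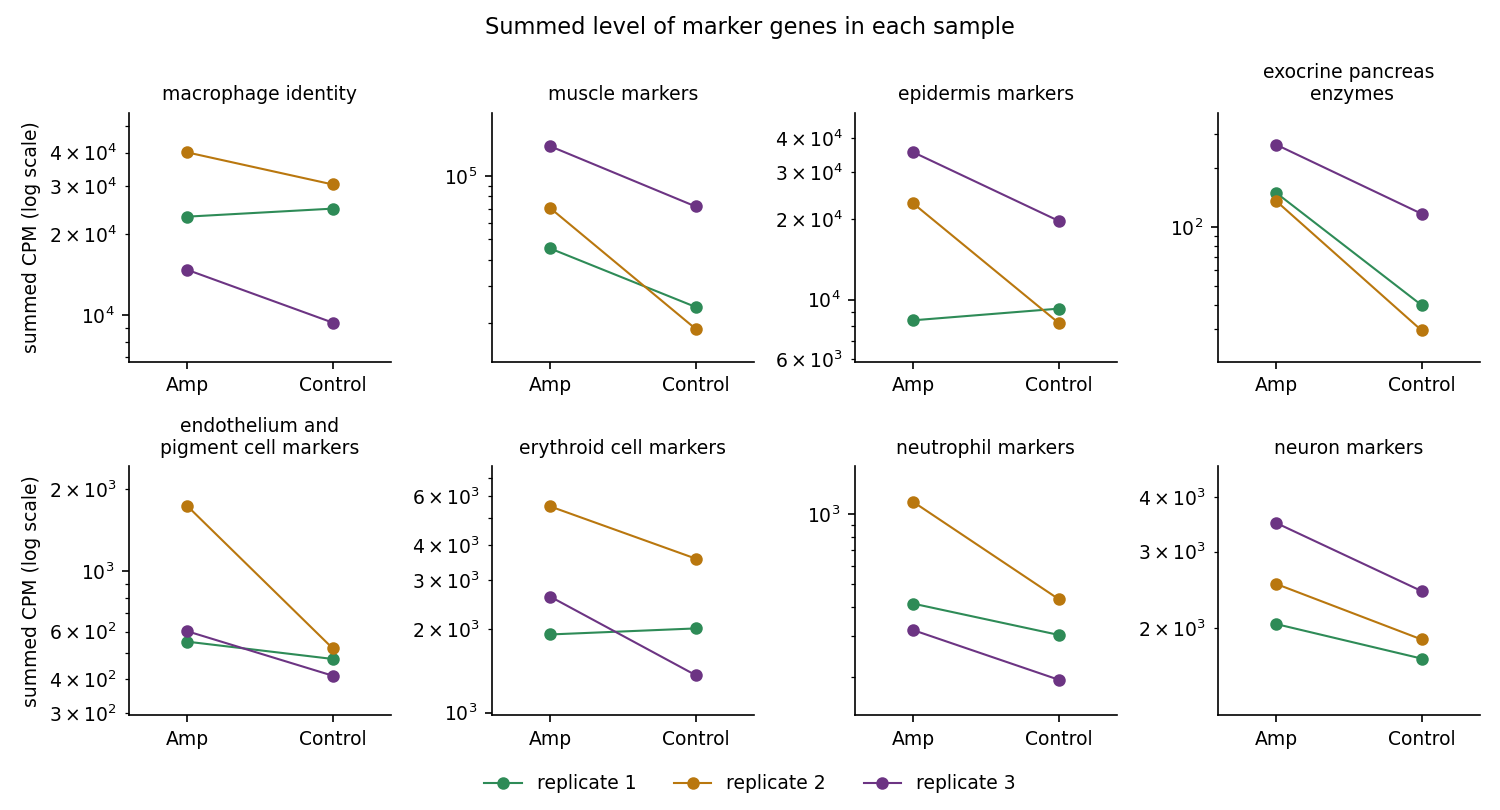
Summed level in CPM (log scales that differ between panels) of the marker genes of 8 cell types in each sample, tested or not. Lines join the Amp and Control samples of 1 replicate experiment. Muscle, exocrine pancreas, neutrophil, neuron, and endothelium and pigment cell markers are higher in Amp in all 3 replicates. Macrophage identity, epidermis and erythroid genes are higher in Amp in replicates 2 and 3 only.

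Fewer genes were detected in Amp than in Control in each replicate. At least 1 read was found for 25596, 23919 and 23911 genes in Amp, against 26070, 24924 and 25410 genes in Control. The mean change was -992.7 ± 512.6 genes (SD of the 3 replicate differences), and an exact sign-flip test over the 3 pairs gave p = 0.25 (2-sided), the smallest value this design allows. The difference remained when all libraries were thinned to 10894542 reads, with a mean change of -918.2 genes. At a limit of 5 reads it was -1399.3.

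Losses and gains in all replicates concerned scarce transcripts. A read was found in all 3 Control samples and in no Amp sample for 71 genes, and in all 3 Amp samples and no Control sample for 8 genes. The lost genes had a median of 5 reads and at most 24 reads over the 3 Control samples, and the gained genes a median of 4.5 and at most 10 reads over the 3 Amp samples, so that none of them reached the 30 reads needed for the test. The lost gene with the most reads was si:ch73-105b23.1, with 0 reads in each Amp sample and 16, 2 and 6 reads in the Control samples, which is at least 6.03-fold lower when 3 reads over the Amp group are taken as the floor. Others were TLR7, for an endosomal receptor of single-stranded RNA (8, 1 and 3 reads in Control), PRSS35, for a serine protease (7, 3 and 1 reads) and ENSDARG00000103377. TLR7 thus stood on the same side as tlr3, tlr8b and tlr21 above, at a depth where single reads decide.

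The gained genes with the most reads were zgc:195077, with 3, 6 and 1 reads in Amp and none in Control (at least 4.42-fold higher over the same floor), si:dkey-22o20.2, si:ch211-209f22.3, the histone gene hist1h2a11 and slc52a3-2a, named after riboflavin transporters. Complete loss was rare among the regulated genes too. Of the 292 downregulated genes, 21 had no read in at least 1 Amp sample, and only scpp9 had none in all 3. Of the 251 upregulated genes, 9 had no read in at least 1 Control sample and none lacked reads in all 3. Apart from scpp9, every regulated gene thus had reads in both groups.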

How the data were processed

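The authors deposited unnormalized read counts per Ensembl gene for each of the 12 samples, made from SMART-seq V4 libraries read at 50 nt and aligned with TopHat2 2.1.0 to GRCz10 (annotation version 80). The counting program is not given in the sources used here, and no molecular identifiers were used, so intervals and floors cover counting error only. Lines that name no gene (reads outside genes, 4.72 to 12.6% of the reads listed, and ambiguous reads, 1.81 to 2.46%) were left out. No strand or copy-specific counting is stated, so overlapping genes and close paralogues are uncertain. Gene symbols were taken from a reference table that matched 26121 of 31962 identifiers. Many are in capitals, as the table has them, and no gene sequences were used.

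Counts of 3 Amp and 3 Control samples were fitted with edgeR 4.0.16 in R 4.3.3 (TMM, glmQLFit, glmQLFTest, replicate number as block) for genes with at least 30 reads in total, with Benjamini-Hochberg adjustment over all 22107 genes. The fit was tested on simulated data in which each change was of the same size in all replicates. Its error rate where changes differ among replicates, as they did here, was not tested. The pairing comes from the 3 replicate experiments of the study: deviations from group means correlated at 0.498, 0.552 and 0.682 for the same number and at -0.56 to 0.075 for different numbers. No sample was a duplicate of another. Differences within a replicate used log2(CPM + 0.5). Whether the samples of a group came from separate crosses is not stated. The p-values and standard errors of the fit with the block rest on a spread estimated partly from all genes. They do not measure a gene's own spread of differences among these 3 replicate experiments. For SLC12A3, the log2 differences were 5.87, 4.62 and 0.22 in replicates 1, 2 and 3, beside a standard error of 0.60. A small p-value thus does not show that the replicates had changes of like size.

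The genes, lists and alternatives were chosen with earlier results of these data known. Named genes were the 12 largest changes each way (at least 1 CPM, same direction in 3 pairs), regulated list members or the 2 most abundant of lists with fewer than 2, genes the study names, the 5 most read genes lost and gained, and the 10 most abundant regulated genes each way. scpp9, LCP1, spi1a, lyz, MFAP4, CD63, lygl1, tnfb, csf3a, hbegfa and the pancreas list were chosen after their values were seen. Of the genes the study names, ccl2 matched no symbol and was not analysed here. Alternatives were no block, DESeq2 1.42.0, RLE, other filters, all 12 samples, no fold cutoff and each replicate left out, and library-size scaling was added after seeing the data. A few single genes are not reported here.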

Additional observations from a re-analysis of the deposited data

How the results depend on the processing

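The 543 regulated genes (251 upregulated, 292 downregulated) became 0 (0 and 0) without the replicate block, 816 (528 and 288) with DESeq2 and the block, 22 (22 and 0) with DESeq2 and no block, 814 (93 and 721) with library size only, 7 (7 and 0) with all 12 samples, and 2 to 1527 (2 to 929 and 0 to 598) with 1 replicate left out. RLE scaling, both other filters and no fold cutoff stayed within 1.5 times these counts. Of the 543 genes, those tested kept their direction in all fits but 1 of 540 genes without replicate 3, and 491 were called again with RLE and 423 with DESeq2 and the block. Of the 108 named genes that passed, 23 passed without replicate 2 and 1 of 106 without replicate 3. The share of regulated genes (under 1, 1 to 10, 10 to 100, and 100 CPM and over) was 0, 1.00, 5.71 and 12.7% with DESeq2 and the block. The share was 0% under 1 CPM with 10 reads in every sample, and 0.0478% (under 1) and 2.77% (10 to 100) without a filter. DESeq2 with the block gave no adjusted p for 8572 of the 22107 genes, which could therefore not be called. The filter of 10 reads in every sample itself removes scarce genes. Neither value of 0% thus shows an absence of change under 1 CPM. With 1 replicate left out the shares of the 4 classes were 0 to 1.28%, 0 to 4.1%, 0.0230 to 9.81% and 0 to 15.6%. The median level of upregulated genes was 66.4 CPM with DESeq2 and the block and 11.9 to 42.9 CPM with 1 replicate left out, and that of downregulated genes 5.34 to 14.6 CPM. Genes lost numbered 250 to 470 and genes gained 66 to 85 with 1 replicate left out. Values changed sign only for named genes that did not pass. With library size only, log2 fold changes were -0.0443 (actb2), -0.0592 (tubb5), -0.0662 (STMN1), -0.0939 (sgk1) and -0.31 (DUSP1). MT-CO1 had 0.0419 with DESeq2 and the block and 0.0416 with RLE. CXCR4 (ENSDARG00000057633) had 0.0806 without the block, 0.16 with DESeq2 and no block, 0.0521 with RLE and 0.0503 with all 12 samples, and ccr2 had 0.0160 with DESeq2 and no block. With 1 replicate left out the ranges were -0.22 to 1.4 (MT-CO3), -0.00095 to 0.90 (CEBPB), -0.16 to 0.66 (actb2), -0.19 to 0.67 (tubb5), -0.0076 to 0.80 (STMN1), -0.13 to 0.55 (sgk1), -0.19 to 0.31 (DUSP1), -0.76 to 0.74 (MT-CO1), -0.78 to 0.11 (gbp1), -0.32 to 0.34 (CXCR4, ENSDARG00000057633) and -0.56 to 0.10 (ccr2). The causes were not tested, and the fits with 1 replicate left out also had fewer samples. Genes with fewer than 30 reads in total could not be tested.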

Other observations

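Other gene groups gave few calls with edgeR, as did all tested genes (2.46%), and some of them gave more with DESeq2. Counts of 0 or 1 in such lists do not set them apart from that share. Of 21 tested interferon response genes, 17 had a negative fold change (median -0.40) and DHX58, which encodes a cytosolic RNA sensor of the RIG-I family, was downregulated, at 2.50, 0.234 and 0.358 CPM in Amp, against 4.77, 5.19 and 1.36 CPM in Control (log2 fold change -2.08, edgeR adjusted p = 0.031). Of 31 tested heat shock and unfolded protein genes, 25 had a positive fold change (median 0.44) and 13 an unadjusted p below 0.05, and DESeq2 with the block called 8 up and 1 down. With edgeR, HSPE1, for a mitochondrial chaperonin, was upregulated (1.37) and DDIT3, for a transcription factor of the unfolded protein response, was downregulated. DDIT3 was at 135, 19.4 and 20.6 CPM in Amp and 211, 157 and 43.3 CPM in Control (log2 fold change -1.55, edgeR adjusted p = 0.013), so that its level in Amp replicate 1 exceeded that in Control replicate 3.

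None of 34 tested cell cycle genes was called by edgeR or by DESeq2 with the block, and 2 had an unadjusted p below 0.05. PCNA, the DNA polymerase clamp, was at 316, 418 and 705 CPM in Amp and 393, 255 and 347 CPM in Control. None of 17 tested glucocorticoid-responsive genes was called by edgeR, 5 had an unadjusted p below 0.05, and DESeq2 with the block called 1 as downregulated. Of 46 tested genes of adhesion, actin and migration, edgeR and DESeq2 with the block each called 1, a decrease, which was itgb2 with edgeR. The lipid droplet gene plin3, the 1 upregulated gene of its list beside 2 that were downregulated, was at 84.2, 190 and 151 CPM in Amp, against 44.6, 95.2 and 31.4 CPM in Control (log2 fold change 1.39, edgeR adjusted p = 0.026). Of 29 tested TCA cycle genes, 22 had a positive fold change (median 0.75) and 15 an unadjusted p below 0.05, and DESeq2 with the block called 5 as upregulated. With edgeR only PDHB, for a subunit of pyruvate dehydrogenase, was called, at 228, 822 and 620 CPM in Amp and 144, 203 and 200 CPM in Control (1.44, edgeR adjusted p = 0.033).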
